A study of Mus musculus with 12 samples.

Results

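Insulin signalling in the liver runs from the insulin receptor to the FOXO transcription factors, and 10 mouse genes of this route were chosen by name: *Insr*, *Irs1*, *Irs2*, *Pik3r1*, *Akt2*, *Foxo1*, *Foxo3*, *Igfbp1*, *Sesn3* and *Trib1*. The deposited table lists 16346 genes by Ensembl identifier, and 9 of the 10 were found in it under their mouse symbols. *Sesn3* was not analysed here. All 9 had a mean normalized count of at least 10 and were among the 12366 genes tested. Liver RNA was sequenced from 12 C57BL6J mice aged 12 weeks, 2 in each of 6 groups. Every mouse carried floxed *Med13* alleles (Med13 fl/fl), and MED13-LKO mice carried *Alb*-Cre in addition, which acts in cells that express albumin, so that other liver cells keep the gene. Mice of each genotype were killed after an overnight fast of 16 hours, or after 4 hours of refeeding on normal chow with water that held 30% sucrose or 30% fructose. The fed mice were killed later in the day than the fasted mice, so that feeding and the hour of sampling cannot be told apart.

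Insulin binds a receptor kinase that phosphorylates the adaptor proteins IRS1 and IRS2, which recruit phosphoinositide 3-kinase and so activate AKT2, the main AKT kinase of liver and fat. AKT phosphorylates FOXO1 and FOXO3, which then bind 14-3-3 proteins and leave the nucleus. In the fasted liver, nuclear FOXO1 drives genes of glucose production and genes such as *Igfbp1* and *Irs2*, and a meal reverses this within hours. The comparisons below ask how RNA of this route followed feeding on either sugar, and whether it differed between the genotypes.

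Sums of normalized counts were 21062211 to 24152885 in the control libraries and 17309215 to 18738563 in those labelled MED13-LKO. Reads counted on genes, estimated from the step between low values, numbered 16086631 to 24231158 per library. *Med13* itself, the targeted gene, measured 646 to 1055 in the libraries labelled MED13-LKO and 578 to 796 in control livers and was not called (log2 fold change 0.22, Benjamini-Hochberg adjusted p = 0.201 in limma). Values per gene do not show whether an exon was lost, and the groups are therefore named by their labels. The hepatocyte marker *Alb* measured 1376902 to 2411616, and the fat cell marker *Adipoq* 0 to 22.5. The value of 22.5 was that of the first control mouse on fructose, and the other libraries held 0 to 3.44. Between the genotype labels 25.3% of all genes were called, and the cell type markers are read against that share. All 6 hepatocyte markers were called lower in the libraries labelled MED13-LKO, with summed levels of 1805132 to 2179780 against 2440529 to 3093894. Of the Kupffer cell markers 2 of 7, a share near that of all genes, were called higher (sums 4684 to 6157 against 3591 to 4965), and of the endothelial markers 4 of 6 (sums 3927 to 5294 against 3398 to 3939). The sums of the stellate cell markers were 4899 to 5584 against 5314 to 6442 with 2 of 6 called lower, those of the cholangiocyte markers 534 to 849 against 666 to 876 with 1 of 4 called lower, and those of the blood cell markers 4327 to 7672 against 6281 to 9863 with 2 lower and 1 higher of 4 tested. The call of the endothelial marker *Cdh5* was lost with no trend of the variance (adjusted p = 0.0519 in limma). That of the cholangiocyte marker *Spp1* was lost in several other settings of the fit (adjusted p up to 0.0824 in limma). *Serpina1c*, *Hba-a1* and *Hbb-bs* share 85.8%, 75.5% and 54.4% of their 31-base stretches with other genes. In whole liver RNA, fewer cells of a type and less RNA per cell cannot be told apart. The second control mouse on fructose stood apart from its partner, and of the 8 fed libraries it held the highest values of *Insr*, *Irs2*, *Foxo1*, *Foxo3*, *Igfbp1* and *Trib1* and the lowest of *Pik3r1*. Where leaving it out changed a call or a direction given for one of the 9 genes, the value without it stands beside the result.

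FOXO proteins are known to act on *Igfbp1* through the insulin response sequence in its promoter, and the sequence upstream of the start site was read for the genes measured. RefSeq windows of 300 bases on GRCm38.p6, from 250 bases before to 50 bases after the start of the gene, were matched for 7 of the 9. The letters CAAAACAA, or TTGTTTTG on the other strand, were found in the windows of *Igfbp1*, *Irs2* and *Irs1* and in 2.51% of all 32851 windows. The letters TGTTTAC or GTAAACA, a FOXO core motif, were found in 0 of the 7 and in 3.65% of all windows. The 250 bases before the start are shown for the 3 genes that hold the first motif, since 2 of them, *Igfbp1* and *Irs2*, had the largest changes of the 9 genes with feeding and *Irs1* had none that was called. Capitals mark the motif, which begins 108 bases before the RefSeq start in *Igfbp1*, 38 in *Irs2* and 33 in *Irs1*. The gene positions given further below are from GENCODE and put the starts elsewhere, that of *Irs2* at 11008458. Distances from those starts differ. The windows are chr11:7197537-7197786 on the plus strand, chr8:11008930-11009179 on the minus strand and chr1:82291440-82291689 on the minus strand, each written 5′ to 3′ along the gene.
Igfbp1: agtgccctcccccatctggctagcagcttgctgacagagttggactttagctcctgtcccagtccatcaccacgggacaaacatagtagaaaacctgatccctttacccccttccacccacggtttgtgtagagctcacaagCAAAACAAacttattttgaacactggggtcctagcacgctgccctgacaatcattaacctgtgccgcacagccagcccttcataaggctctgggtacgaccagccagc
Irs2: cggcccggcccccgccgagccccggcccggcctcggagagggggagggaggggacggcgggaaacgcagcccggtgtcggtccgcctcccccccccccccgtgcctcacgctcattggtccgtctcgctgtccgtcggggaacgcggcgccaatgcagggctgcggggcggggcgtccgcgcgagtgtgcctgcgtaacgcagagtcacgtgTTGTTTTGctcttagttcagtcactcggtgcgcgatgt
Irs1: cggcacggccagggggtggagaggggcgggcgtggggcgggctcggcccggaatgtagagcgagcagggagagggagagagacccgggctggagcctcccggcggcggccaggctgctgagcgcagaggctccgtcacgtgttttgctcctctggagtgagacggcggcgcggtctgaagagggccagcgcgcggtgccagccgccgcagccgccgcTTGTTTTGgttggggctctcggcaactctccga
The windows of *Irs2* and *Irs1* hold 72.8% and 72.4% G and C, and that of *Igfbp1* 53.2%. A match of letters is a description of the window and was not tested as a site.

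After refeeding, RNA of the receptor, of IRS2, of both FOXO factors and of the FOXO1 target *Igfbp1* was lower, and RNA of the phosphoinositide 3-kinase subunit *Pik3r1* was higher. Averaged over both sugars and both genotypes, *Igfbp1* was 21.6-fold lower, *Irs2* 4.55-fold, *Foxo1* 2.56-fold, *Foxo3* 1.91-fold and *Insr* 1.26-fold, and *Pik3r1* was 1.21-fold higher. *Irs1*, *Akt2* and *Trib1* did not pass the test. Thus 6 of the 9 genes were called, 1 higher and 5 lower, where 21.8% of all genes tested were called, 10.7% higher and 11% lower. Of the cell type markers, 1 of 6 hepatocyte and 1 of 6 endothelial markers were called lower with feeding, 2 of 4 blood cell markers tested were called lower, the globin genes *Hbb-bs* (-0.58) and *Hba-a1* (-0.55), and of 6 stellate cell markers 1 was called higher (*Col1a1*, 0.50) and 1 lower (*Reln*, -0.23). None of 7 Kupffer cell markers (0) and of 4 cholangiocyte markers tested (0) was called in limma. The call of *Reln* was lost in several other settings (adjusted p up to 0.0894 in limma), and that of *Hba-a1* with no trend of the variance (0.0726). A gene is called where its adjusted p is under 0.05 in limma, fitted on log2(normalized count + 1) over the 6 groups with Benjamini-Hochberg adjustment over all genes tested. The p-values rest on the spread between the 2 mice of a group, pooled over the 6 groups and moderated by a trend over all genes. They do not measure the spread of the compared groups alone. The added 1 makes the fold changes of low genes appear smaller.

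**Figure D1:**
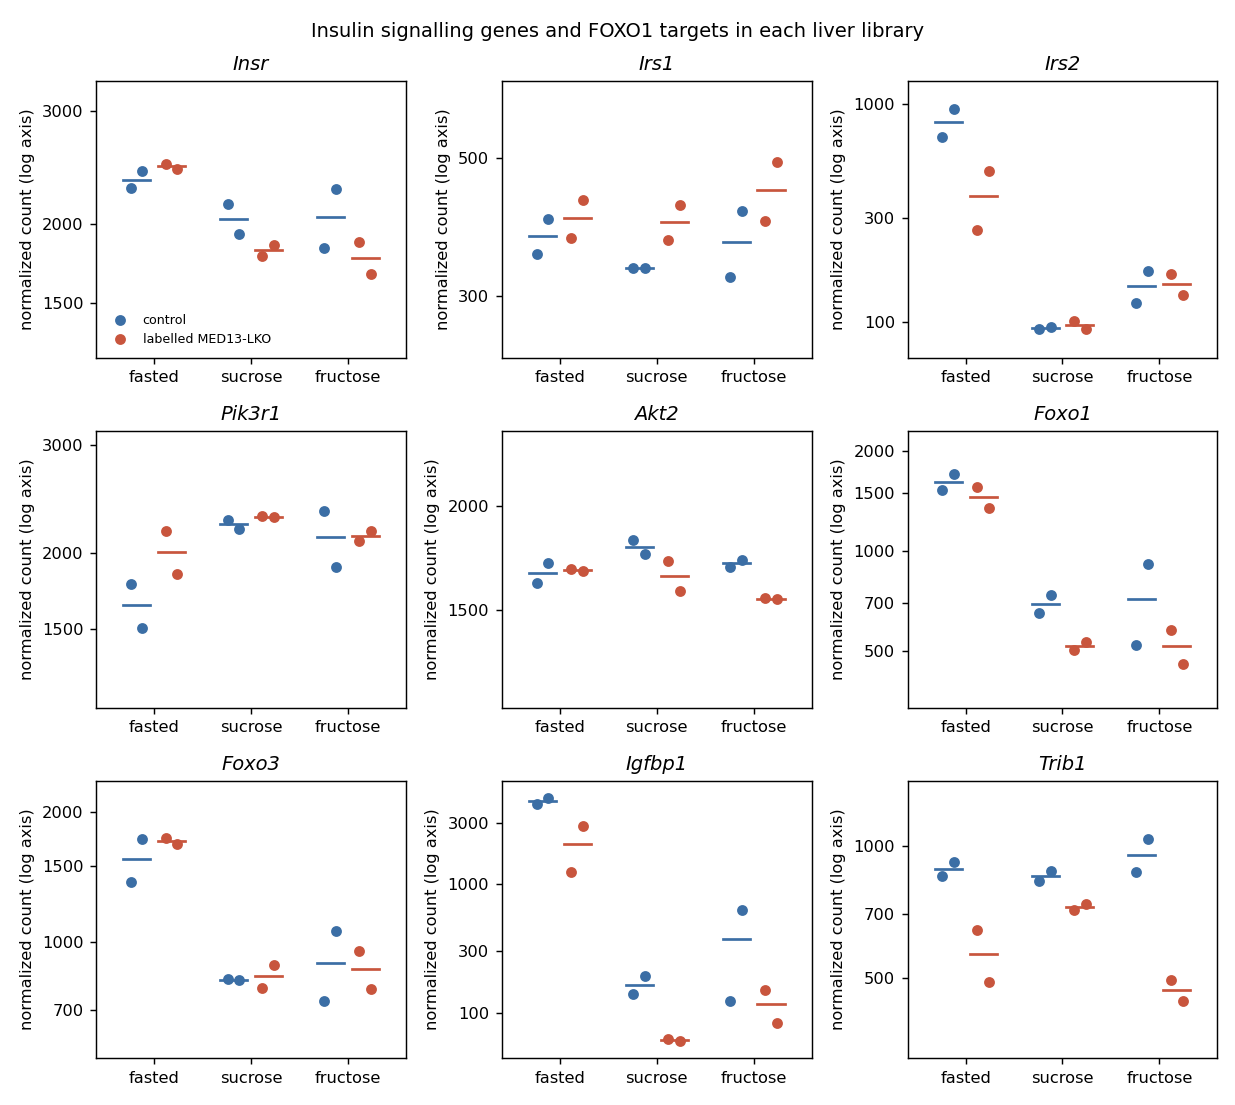
Normalized counts (vertical axes, logarithmic, a different range in each panel) of the 9 genes in the 12 liver libraries, by diet on the horizontal axes. Each point is 1 mouse, each bar the mean of 2 mice, blue is control and red is labelled MED13-LKO. *Igfbp1* spans 60 to 4703 and the fasted mice of both genotypes lie above all fed mice for *Insr*, *Irs2*, *Foxo1*, *Foxo3* and *Igfbp1*, while *Trib1* separates by genotype in each diet. For *Insr* the lowest fasted value was 2274 and the highest fed value 2263. The share of all genes that separate in these ways was not counted.

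*Insr* encodes the insulin receptor (ENSMUSG00000005534, chromosome 8 of GRCm38, 3122061 to 3279617, minus strand). *Insr* in control livers measured 2274 and 2415 when fasted, 2144 and 1926 after sucrose, and 1829 and 2263 after fructose. For *Insr*, the libraries labelled MED13-LKO held 2477 and 2439, 1782 and 1855, and 1870 and 1666 with the diets in that order. The 4 fasted mice were thus above all 8 fed mice, though the lowest fasted value and the highest fed value were close. The log2 fold change with feeding was -0.33 (standard error 0.0664, adjusted p = 0.00668 in limma). Within the labelled MED13-LKO group *Insr* was called lower with sucrose (-0.43, adjusted p = 0.0466 in limma) and with fructose (-0.48, adjusted p = 0.0313 in limma). In control mice it was not called with either sugar, at -0.21 and -0.20 (adjusted p = 0.275 and 0.293 in limma), and without the second fructose mouse the latter was -0.36 (adjusted p = 0.071 in limma). The difference between these responses was tested and was not called, at -0.23 for sucrose (adjusted p = 0.738 in limma) and -0.27 for fructose (adjusted p = 0.61 in limma), or -0.12 without the second control mouse on fructose. The call with sucrose was lost with any of the 4 libraries left out (adjusted p = 0.166 to 0.201 in limma), and that with fructose without any of 3 of the 4 libraries (adjusted p up to 0.236 in limma, without the second mouse labelled MED13-LKO on fructose). Averaged over both genotypes, the call stayed with each of the 12 libraries left out in turn.

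The adaptor genes *Irs1* (ENSMUSG00000055980, chromosome 1, 82233101 to 82291416, minus strand) and *Irs2* (ENSMUSG00000038894, chromosome 8, 10984681 to 11008458, minus strand) encode the main insulin receptor substrates of the liver. *Irs2* in control livers measured 703 and 942 when fasted, 92.9 and 94.8 after sucrose, and 122 and 170 after fructose. For *Irs2*, the libraries labelled MED13-LKO held 263 and 490, 101 and 92.2, and 166 and 133. The lowest fasted value therefore stood above the highest fed value in each genotype. In control mice *Irs2* fell by 3.10 on the log2 scale with sucrose (standard error 0.28, adjusted p = 0.000391 in limma), and with fructose by 2.49 (adjusted p = 0.00224 in limma). In the libraries labelled MED13-LKO it fell by 1.88 with sucrose (adjusted p = 0.00538 in limma), and with fructose by 1.27 (adjusted p = 0.0284 in limma). The last of these was lost without the second fasted mouse (-0.82, adjusted p = 0.156 in limma), without the first fructose mouse (-1.43, adjusted p = 0.0509 in limma) or without the second (-1.11, adjusted p = 0.209 in limma), and the fall with sucrose without the second sucrose mouse (-1.82, adjusted p = 0.0538 in limma).

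*Irs1* in control livers measured 350 and 398 when fasted, 332 and 332 after sucrose, and 322 and 410 after fructose. For *Irs1*, the libraries labelled MED13-LKO held 372 and 427, 369 and 420, and 395 and 492. Each group overlapped the next in rank, and the log2 fold change with feeding was -0.02 with a 95% interval from -0.23 to 0.19 (adjusted p = 0.903 in limma). *Irs1* shares 30.7% of its 31-base stretches with other genes and overlaps 2822 exonic bases of *Gm9747* on the other strand, so its estimated counts are less certain than those of *Irs2*, which shares 2.13%. *Irs2* overlaps 162 exonic bases of *9530052E02Rik* on the other strand. Per kilobase of exon, *Irs2* stood at 2.91 and 3.42 times *Irs1* in the fasted control livers and at 1.02 and 1.66 times in the fasted livers labelled MED13-LKO. In the 8 fed livers this ratio of levels was 0.318 to 0.61, so that *Irs1* was the more abundant of the pair after feeding in both genotypes.

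*Pik3r1* (ENSMUSG00000041417, chromosome 13, 101680563 to 101768217, minus strand) encodes the p85-alpha regulatory subunit of phosphoinositide 3-kinase, and *Akt2* (ENSMUSG00000004056, chromosome 7, 27591552 to 27640826, plus strand) the kinase downstream of it. *Pik3r1* in control livers measured 1779 and 1507 when fasted, 2264 and 2189 after sucrose, and 2340 and 1896 after fructose. For *Pik3r1*, the libraries labelled MED13-LKO held 2168 and 1843, 2297 and 2286, and 2089 and 2170. In control mice the fed values lay above the fasted values, and in the libraries labelled MED13-LKO they overlapped with fructose. The log2 fold change over both genotypes was 0.27 (standard error 0.0735, adjusted p = 0.0249 in limma). That call was lost without the second fasted control mouse (0.21, adjusted p = 0.119 in limma), without the second fasted mouse labelled MED13-LKO (0.21, adjusted p = 0.114 in limma) or without the second fructose mouse labelled MED13-LKO (0.27, adjusted p = 0.051 in limma). With sucrose in control mice *Pik3r1* was called higher (0.44, adjusted p = 0.0492 in limma), a call that was lost with any of the 4 libraries left out (adjusted p = 0.0626 to 0.282 in limma). With fructose in control mice it was 0.36 higher and not called (adjusted p = 0.11 in limma), and without the second fructose mouse it was called (0.51, adjusted p = 0.0367 in limma).

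*Akt2* in control livers measured 1616 and 1707 when fasted, 1821 and 1750 after sucrose, and 1691 and 1720 after fructose. For *Akt2*, the libraries labelled MED13-LKO held 1678 and 1670, 1718 and 1581, and 1549 and 1545. These 12 values span less than those of any other of the 9 genes, with a ratio of 1.15 between the highest and the lowest group mean. The log2 fold change with feeding was 0.00 with a 95% interval from -0.10 to 0.10 (adjusted p = 0.985 in limma). *Akt2* shares 13.3% of its 31-base stretches with other genes.

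*Foxo1* (ENSMUSG00000044167, chromosome 3, 52268336 to 52353221, plus strand) and *Foxo3* (ENSMUSG00000048756, chromosome 10, 42181841 to 42276755, minus strand) encode the transcription factors that AKT holds out of the nucleus. *Foxo1* in control livers measured 1527 and 1704 when fasted, 653 and 737 after sucrose, and 522 and 919 after fructose. For *Foxo1*, the libraries labelled MED13-LKO held 1564 and 1355, 506 and 533, and 579 and 457. Fasted and fed mice did not overlap in either genotype. The log2 fold changes in control mice were -1.22 with sucrose (adjusted p = 0.00996 in limma) and -1.22 with fructose (adjusted p = 0.0148 in limma). For the libraries labelled MED13-LKO the values were -1.49 (adjusted p = 0.00541 in limma) and -1.50 (adjusted p = 0.00644 in limma). Without the second control mouse on fructose, the change with fructose was -1.63 (adjusted p = 0.000817 in limma), and without the first it was -0.81 (adjusted p = 0.0349 in limma). The call with fructose in control mice was lost without the first (-1.30, adjusted p = 0.0543 in limma) or the second fasted control mouse (-1.14, adjusted p = 0.109 in limma). That with sucrose was lost without the second fasted (-1.14, adjusted p = 0.0805 in limma) or the first sucrose control mouse (-1.13, adjusted p = 0.0768 in limma), and that with fructose in mice labelled MED13-LKO without the second fructose mouse (-1.33, adjusted p = 0.0715 in limma).

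*Foxo3* in control livers measured 1379 and 1730 when fasted, 823 and 818 after sucrose, and 732 and 1065 after fructose. For *Foxo3*, the libraries labelled MED13-LKO held 1740 and 1681, 786 and 888, and 958 and 782. Again the 4 fasted mice were above the 8 fed mice. The 4 changes from the fasted state ran from -1.03 to -0.81 on the log2 scale (adjusted p = 0.00922 to 0.03 in limma). The change with fructose in control mice, -0.81, was -1.08 without the second fructose mouse (adjusted p = 0.00533 in limma) and -0.54 without the first (adjusted p = 0.118 in limma), when it was not called. Averaged over both genotypes the fall was 0.93 (standard error 0.107, adjusted p = 0.000358 in limma), and it was called with each library left out in turn. Under the MED13-LKO label, the call for sucrose was lost with any of the 4 libraries left out (log2 fold changes -1.12 to -0.94). Each of the remaining single changes lost its call without any of 3 of the 4 libraries compared. With libraries left out in turn, the change for sucrose in control mice ran from -1.08 to -0.75. That for fructose ran from -1.08 to -0.54 in control mice and from -1.13 to -0.84 under the MED13-LKO label. Per kilobase of exon, *Foxo1* stood at 0.967 and 0.861 times *Foxo3* in fasted control livers and at 0.785 and 0.704 times in fasted livers labelled MED13-LKO. With sugar the ratio of levels was 0.623 to 0.787 in control livers and 0.511 to 0.563 in livers labelled MED13-LKO, and these 2 ranges did not overlap. *Foxo1* shares 8% and *Foxo3* 0.106% of the 31-base stretches with other genes, and *Foxo1* overlaps 674 exonic bases of *Gm20402* on the other strand.

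*Igfbp1* (ENSMUSG00000020429, chromosome 11, 7197782 to 7202546, plus strand) encodes a secreted protein that binds insulin-like growth factors and is a standard readout of FOXO1 in liver. *Igfbp1* in control livers measured 4236 and 4703 when fasted, 139 and 192 after sucrose, and 123 and 632 after fructose. For *Igfbp1*, the libraries labelled MED13-LKO held 1239 and 2860, 62.6 and 60, and 151 and 82.7. All fasted values were above all fed values, and the highest group mean was 73 times the lowest. In control mice the log2 fold change was -4.76 with sucrose (standard error 0.637, adjusted p = 0.00212 in limma) and -3.99 with fructose (adjusted p = 0.00806 in limma). Without the second control mouse on fructose, the latter was -5.17 (adjusted p = 0.000508 in limma), without the first it was -2.82 (adjusted p = 0.0182 in limma), and without the second fasted control mouse it was -3.92 and not called (adjusted p = 0.0647 in limma). In the libraries labelled MED13-LKO the log2 fold changes were -4.92 (adjusted p = 0.00281 in limma) and -4.06 (adjusted p = 0.00771 in limma). The latter was not called without the second fasted (-3.46, adjusted p = 0.0638 in limma) or the second fructose mouse (-3.63, adjusted p = 0.0858 in limma).

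*Trib1* (ENSMUSG00000032501, chromosome 15, 59648350 to 59657099, plus strand) encodes a pseudokinase that brings substrates to the ubiquitin ligase COP1 and is known for its effect on liver lipid synthesis. *Trib1* in control livers measured 851 and 917 when fasted, 831 and 877 after sucrose, and 871 and 1038 after fructose. For *Trib1*, the libraries labelled MED13-LKO held 643 and 489, 713 and 736, and 494 and 444. Diets overlapped in control mice, and the log2 fold change with feeding over both genotypes was 0.04 with a 95% interval from -0.14 to 0.23 (adjusted p = 0.761 in limma). The 6 control livers lay above the 6 livers labelled MED13-LKO.

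Counted by diet, 5 of the 9 genes were called with sucrose in control mice (*Irs2*, *Igfbp1*, *Foxo1* and *Foxo3* lower, *Pik3r1* higher), where 8.57% of all genes were called. With fructose in control mice the same genes but *Pik3r1* were called lower, 4 of 9, where 5.6% of all genes were called and 2.81% were called lower. In the libraries labelled MED13-LKO 5 of 9 were called lower with sucrose (5.71% of all genes called, 3.48% lower) and 5 of 9 with fructose (6.53% of all genes called, 3.58% lower), *Insr*, *Irs2*, *Foxo1*, *Foxo3* and *Igfbp1* in each. Both sugars were compared with the same fasted mice, so the pairs of counts are not independent. When only the 4 libraries compared were fitted, 0 of the 9 were called with fructose in control mice, with adjusted p in limma of 0.0521 for *Irs2*, 0.136 for *Igfbp1*, 0.165 for *Foxo1* and 0.205 for *Foxo3*. Over all genes the calls then fell from 692 to 27.

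Between the sugars, none of the 9 genes was called in either genotype by limma (0 of 9 each), where 0.0404% of all genes were called in each, and at an unadjusted p under 0.05 there were 0 in control mice and 1, *Trib1*, in the libraries labelled MED13-LKO. Of the 12366 genes tested, 1061 and 951 had such an unadjusted p in limma. *Irs2* was higher with fructose than with sucrose in both genotypes, with log2 fold changes of 0.61 (standard error 0.28, adjusted p = 0.596 in limma) and 0.62 (standard error 0.28, adjusted p = 0.653 in limma). The 4 fructose values, 122 to 170, lay above the 4 sucrose values, 92.2 to 101. *Trib1* differed between fructose and sucrose by -0.63 in the libraries labelled MED13-LKO (95% interval -0.93 to -0.32, adjusted p = 0.227 in limma) and by 0.15 in control mice (95% interval -0.15 to 0.46, adjusted p = 0.812 in limma). *Igfbp1* differed by 0.77 in control mice (95% interval -0.65 to 2.19), and by -0.40 without the second control mouse on fructose.

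Between the genotypes, *Trib1* and *Igfbp1* were lower in the libraries labelled MED13-LKO when averaged over the diets, and *Irs2* was lower in the fasted state. The receptor, *Irs1*, *Pik3r1*, *Akt2*, *Foxo1* and *Foxo3* were not called in any of these comparisons. *Trib1* was 1.55-fold lower (log2 fold change -0.64, standard error 0.0788, adjusted p = 0.000382 in limma) and *Igfbp1* 2.5-fold lower (log2 fold change -1.32, standard error 0.368, adjusted p = 0.0257 in limma). These 2 of 9 genes compare with 25.3% of all genes called, 12.1% higher and 13.2% lower, so the share of the 9 was near the background. The hepatocyte markers were lower in the same libraries, with a median log2 fold change of -0.44, and the Kupffer cell and endothelial marker sums were higher, as given above. Their part in these differences was not tested.

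**Figure D2:**
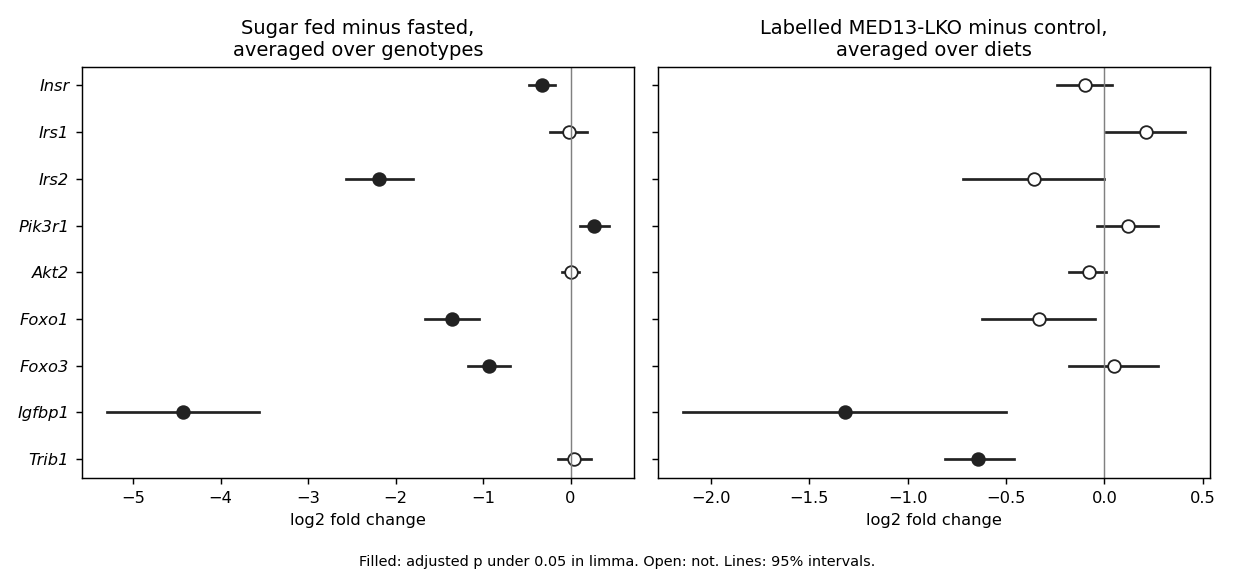
Log2 fold changes (horizontal axes, with different ranges) of the 9 genes with feeding, averaged over genotypes (left), and between the genotype labels, averaged over diets (right). Points are limma estimates from 12 libraries, filled where the adjusted p is under 0.05, and lines are 95% intervals. Feeding gave 6 filled points, from -4.43 for *Igfbp1* to 0.27 for *Pik3r1*, and the genotype label 2, *Igfbp1* at -1.32 and *Trib1* at -0.64.

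In the fasted state *Trib1* was lower under the MED13-LKO label, at 566 ± 109 (SD, n = 2) against 884 ± 47.1 (SD, n = 2), which is -0.65 on the log2 scale (adjusted p = 0.0174 in limma). With fructose it was 469 ± 35.4 (SD, n = 2) against 954 ± 118 (SD, n = 2), which is -1.02 on the log2 scale (adjusted p = 0.00222 in limma). With sucrose it was 725 ± 16.5 (SD, n = 2) against 854 ± 31.9 (SD, n = 2), a difference of -0.24 that was not called (95% interval -0.54 to 0.07, adjusted p = 0.367 in limma). The mice of the 2 genotypes did not overlap in any diet. The averaged call and the call with fructose stayed with each library left out in turn, the latter with -0.89 (adjusted p = 0.00901 in limma) without the second control mouse on fructose. The fasted call was lost without the first control mouse (-0.71, adjusted p = 0.0663 in limma), the second control mouse (-0.60, adjusted p = 0.109 in limma) or the second mouse labelled MED13-LKO (-0.46, adjusted p = 0.114 in limma), and with only the 4 fasted libraries fitted (adjusted p = 0.0597 in limma). *Trib1* shares none of its 31-base stretches with other genes.

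*Irs2* in the fasted state was 377 ± 160 (SD, n = 2) in the libraries labelled MED13-LKO and 822 ± 169 (SD, n = 2) in control mice, a 2.26-fold difference (log2 fold change -1.18, standard error 0.28, adjusted p = 0.0303 in limma). The highest of the first pair, 490, was below the lowest of the second, 703. With either sugar the genotypes overlapped, with differences of 0.04 (95% interval -0.58 to 0.66) for sucrose and 0.05 (95% interval -0.58 to 0.67) for fructose. The 6 group means ran from fasted control through fasted MED13-LKO and the 2 fructose groups to the 2 sucrose groups. In that order the genotypes overlapped within each sugar, and the other neighbours did not overlap. The fasted call was lost without the first control mouse (-1.39, adjusted p = 0.067 in limma), the second control mouse (-0.97, adjusted p = 0.169 in limma) or the first mouse labelled MED13-LKO (-0.73, adjusted p = 0.154 in limma). It was also lost with only the 4 fasted libraries fitted (adjusted p = 0.0826 in limma) and with no trend of the variance with the mean (adjusted p = 0.0642 in limma).

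*Igfbp1* differed in the same direction in each diet, by -1.25 in the fasted state, -1.40 with sucrose and -1.32 with fructose, and none of the 3 was called (adjusted p = 0.254, 0.24 and 0.251 in limma). In the fasted state it was 2049 ± 1147 (SD, n = 2) against 4470 ± 330 (SD, n = 2), with sucrose 61.3 ± 1.85 (SD, n = 2) against 166 ± 37.3 (SD, n = 2), and with fructose 117 ± 48.1 (SD, n = 2) against 378 ± 360 (SD, n = 2). The genotypes overlapped with fructose only. Without the second control mouse on fructose the difference with fructose was -0.14 (adjusted p = 0.893 in limma), and without the first it was -2.49 and called (adjusted p = 0.0174 in limma). The averaged difference was -0.93 without the second control mouse on fructose (adjusted p = 0.0167 in limma). It was not called without either fasted control mouse (adjusted p = 0.0508 and 0.0583 in limma), the second sucrose control mouse (0.0664), the first fasted mouse labelled MED13-LKO (0.0685), either sucrose mouse labelled MED13-LKO (0.0572 and 0.0587) or the second fructose mouse labelled MED13-LKO (0.0686), with differences from -1.35 to -1.12 in these fits.

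In single diets, 2 of the 9 genes were called between genotypes in the fasted state, both lower (8.98% of all genes called, 4.86% lower), 0 with sucrose (6.03% of all genes, and 0 of the 9 at an unadjusted p under 0.05 in limma, beside 2642 of the 12366 genes tested) and 1, lower, with fructose (7.69% of all genes called, 3.95% lower). *Foxo1* differed by -0.42 with sucrose and by -0.43 with fructose, where its fed mice labelled MED13-LKO measured 457 to 579 and the fed control mice 522 to 919 (adjusted p = 0.324 and 0.285 in limma). The difference with fructose was -0.02 without the second control mouse and -0.84 without the first, when it was called (adjusted p = 0.957 and 0.0201 in limma). In the fasted state *Foxo1* differed by -0.15 (95% interval -0.64 to 0.35). Averaged over the diets, *Foxo1* differed by -0.33 (95% interval -0.62 to -0.05, adjusted p = 0.0875 in limma) and was called without the first control mouse on fructose (-0.47, adjusted p = 0.00343 in limma). *Irs2* differed by -0.36 (95% interval -0.72 to -0.00, adjusted p = 0.132 in limma) and was called without the second fasted mouse labelled MED13-LKO (-0.51, adjusted p = 0.0252 in limma). *Akt2* differed by -0.08 on average over the diets (95% interval -0.18 to 0.01), *Insr* by -0.10 (95% interval -0.24 to 0.04) and *Foxo3* by 0.05 (95% interval -0.18 to 0.27). *Irs1* differed by 0.21 (95% interval 0.01 to 0.41, adjusted p = 0.125 in limma), and *Pik3r1* by 0.12 (95% interval -0.04 to 0.27).

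**Figure D3:**
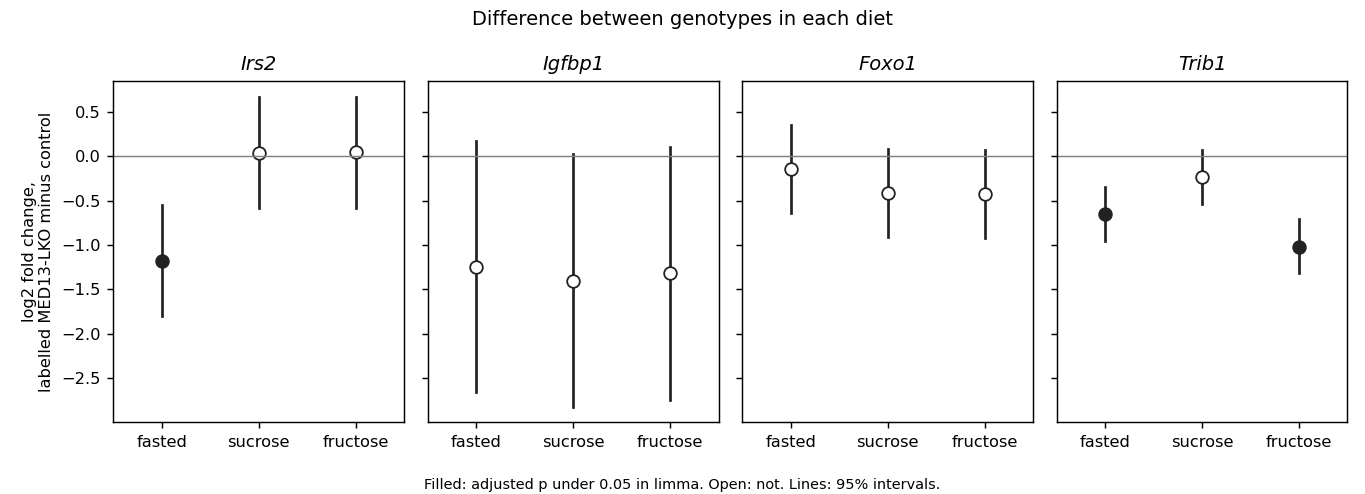
Log2 fold changes between the genotype labels (vertical axis, labelled MED13-LKO minus control) of 4 genes in each diet (horizontal axes). Points are limma estimates of 2 against 2 mice with the spread shared over 12 libraries, filled where the adjusted p is under 0.05, and lines are 95% intervals. *Irs2* is filled in the fasted state at -1.18, *Trib1* in the fasted state at -0.65 and with fructose at -1.02, and the intervals of *Igfbp1* reach from -2.82 to 0.17.

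Whether feeding acted differently in the 2 genotypes was tested as an interaction. For sucrose 0 of the 9 genes were called by limma (0.146% of all genes) and for fructose 0 (0.0243% of all genes), with 1 gene each, *Irs2*, at an unadjusted p under 0.05. Of the 12366 genes tested, 1055 and 1170 had such an unadjusted p in limma. The fall of *Irs2* was smaller in the libraries labelled MED13-LKO by 1.22 on the log2 scale with sucrose (95% interval 0.33 to 2.10, adjusted p = 0.437 in limma) and by 1.22 with fructose (95% interval 0.34 to 2.11, adjusted p = 0.425 in limma). The same 4 fasted mice enter both values. With any of the libraries left out in turn, these differences stayed between 0.77 and 1.67. The comparison of fructose with sucrose between genotypes was added after the values had been seen. Of the 9 genes 0 were called in it by limma (0.105% of all genes). *Trib1* had the only unadjusted p under 0.05 among the 9, as had 855 of the 12366 genes tested. The difference of *Trib1* was -0.78 (95% interval -1.21 to -0.35, adjusted p = 0.45 in limma).

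The 89 other genes tested of the route were read in 6 lists that hold none of the 9. Averaged over both genotypes, 48 of them (53.9%) were called with feeding, 16 higher and 32 lower, where 21.8% of all genes were called, 10.7% higher and 11% lower, and the list counts are to be read beside these shares. Among the 8 genes that insulin is known to induce, 7 rose and 0 fell, with a median log2 fold change of 1.71 against -0.01 over all genes tested. *Angptl8*, a secreted inhibitor of lipoprotein lipase, rose most, by 3.61 on the log2 scale (standard error 0.156, adjusted p = 3.21e-06 in limma). *Fasn*, *Srebf1* and *Acaca*, which serve fatty acid synthesis, rose by 3.48, 1.72 and 1.68.

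Among 23 other FOXO1 targets, 14 fell, 2 rose and 7 were not called, with a median of -0.66. *Tat*, an enzyme of tyrosine breakdown, fell by 1.89 (adjusted p = 3.87e-05 in limma), *Ccng2*, a cyclin of arrested cells, by 1.47, *Klf15*, a transcription factor of the fasted liver, by 1.29, and *Pnpla2*, the main triglyceride lipase, by 0.84. The 2 that rose were *Gadd45a*, a stress gene that FOXO factors can induce, and *Mttp*, which loads lipid onto lipoproteins. *Gadd45a* measured 38.4 and 47.9 in fasted control livers and 162 to 513 in fed control livers, and the change over both genotypes was 2.26 (adjusted p = 0.000102 in limma). It shares 17% of its 31-base stretches with other genes. *Mttp* rose by 0.17 (adjusted p = 0.0165 in limma), a call lost without any of 3 libraries (adjusted p up to 0.0735 in limma, without the first fasted control mouse).

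Among 25 genes of the insulin cascade, 1 rose, 7 fell and 17 were not called, beside 21.8% called over all genes, with a median of -0.04. *Pik3r3*, another regulatory subunit of phosphoinositide 3-kinase, rose by 0.92 (adjusted p = 0.00187 in limma), and shares 23.7% of its 31-base stretches with other genes. *Tsc1*, which restrains mTORC1, fell by 0.61, *Eif4ebp1*, a translation repressor that mTORC1 inactivates, by 0.44, *Rictor*, a subunit of mTORC2, by 0.40 and *Gsk3b*, a kinase that AKT inhibits, by 0.39 (adjusted p = 0.000296 to 0.00498 in limma). Of 14 brakes on insulin signalling, 2 rose and 4 fell. *Socs3*, which blocks the receptor and its substrates, rose by 0.44 and *Ptpn1*, the receptor phosphatase PTP1B, by 0.36. *Trib3*, a pseudokinase that can bind AKT, fell by 1.06, *Grb14*, an adaptor that inhibits the receptor, by 0.39 and *Enpp1* by 0.26. The calls of *Socs3*, *Enpp1* and *Ptpn1* were lost without any of 10, 7 and 3 of the 12 libraries, with adjusted p in limma up to 0.176 for *Socs3* and 0.1 for *Ptpn1* (both without the second fasted control mouse) and 0.143 for *Enpp1* (without the second fasted mouse labelled MED13-LKO), and those of *Socs3* and *Enpp1* also with no trend of the variance (0.063 and 0.0611).

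Of 11 FOXO family members and partners, 3 rose and 5 fell. The 3 were 14-3-3 genes, *Ywhag* (0.56, adjusted p = 0.000423 in limma), *Ywhah* (0.20, adjusted p = 0.0268 in limma) and *Ywhae* (0.15, adjusted p = 0.0479 in limma). Those of *Ywhah* and *Ywhae* were lost with no trend of the variance (adjusted p = 0.0521 and 0.103 in limma) and without any of 7 and 10 of the 12 libraries, with adjusted p in limma up to 0.108 (without the first fasted control mouse) and 0.192 (without the second fasted mouse labelled MED13-LKO). *Sirt1*, a deacetylase of FOXO1, fell by 0.79, *Sgk1*, a kinase that phosphorylates FOXO3, by 0.74, and the acetyltransferase genes *Crebbp* and *Ep300* by 0.60 and 0.31. The call of *Sgk1* was lost without the second fasted mouse of either genotype (adjusted p up to 0.0576 in limma). Of 8 genes of IGF binding proteins and their partners, *Igfals* rose by 0.51 while *Igfbp3* and *Igfbp4* fell by 0.42 and 0.28 (adjusted p = 0.0293, 0.0494 and 0.00387 in limma). *Igfals* was not called with no trend of the variance (adjusted p = 0.0624 in limma) or without any of 5 libraries (up to 0.1), and *Igfbp3* was not called in 5 other settings (up to 0.0781) or without any of 10 libraries (up to 0.188), each highest without the second fasted control mouse. Each of these changes was smaller in size than that of *Igfbp1*.

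Over the diets, 32 of the 89 genes differed between the genotype labels, 15 higher and 17 lower in the libraries labelled MED13-LKO. This is 36%, where 25.3% of all genes were called, 12.1% higher and 13.2% lower, and the counts by list are to be read beside these shares. Among the genes that insulin induces, 5 of 8 were lower and 0 higher, with a median of -0.68 against 0.01 over all genes tested. *Scd1*, a desaturase of fatty acid synthesis, was lower, at -1.68 (adjusted p = 0.00233 in limma), *Acaca* at -0.72 and *Srebf1* at -0.60. *Srebf1* was not called without the first sucrose mouse labelled MED13-LKO (adjusted p = 0.0551 in limma). Of the IGF binding protein list 4 of 8 were lower and 0 higher, with a median of -0.47. *Igf1* itself, the liver's circulating growth factor, measured 10144 to 12692 in the 6 control livers and 6463 to 8720 in the 6 labelled MED13-LKO, without overlap (log2 fold change -0.65, adjusted p = 4.54e-05 in limma). *Igfbp2*, *Igfbp5* and *Igfbp4* were lower, at -0.95, -0.66 and -0.29, and *Igfbp2* was not called without any of 3 libraries (adjusted p up to 0.0562 in limma, without the first sucrose mouse labelled MED13-LKO). The hepatocyte markers, at a median of -0.44, were lower in the same libraries, and their part in these differences was not tested.

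The other FOXO1 targets split evenly, with 6 higher, 6 lower and 11 not called. *Cdkn1a*, the cell cycle inhibitor p21, measured 8.38 to 70.8 in control livers and 39 to 442 in those labelled MED13-LKO, a change of 1.88 on the log2 scale (adjusted p = 0.00376 in limma). *Cited2*, a transcriptional coregulator, was higher by 0.74, *Ppargc1a*, a coactivator of FOXO1, by 0.47 and *Pnpla2* by 0.34. *Ppargc1a* was not called without any of 5 libraries (adjusted p up to 0.0693 in limma, without the second sucrose mouse labelled MED13-LKO). *Apoc3*, a lipoprotein component made by hepatocytes, measured 17116 to 19545 against 7351 to 9862, again without overlap (-1.08, adjusted p = 5.79e-06 in limma), and *Cat*, *Atg14* and *Mttp* were lower, at -0.51, -0.37 and -0.36. Of the brakes, 4 were higher and 1 lower. *Trib3* was higher by 0.90 (adjusted p = 0.00513 in limma), *Phlpp2*, an AKT phosphatase, by 0.49, *Inppl1*, the lipid phosphatase SHIP2, by 0.35 and *Enpp1* by 0.26. *Enpp1* was not called with no trend of the variance (adjusted p = 0.0509 in limma) or without any of 6 libraries (up to 0.0741, without the first sucrose mouse labelled MED13-LKO). *Deptor*, an mTOR inhibitor, measured 4300 to 5261 in control livers and 2753 to 3650 in those labelled MED13-LKO (-0.58, adjusted p = 4.37e-05 in limma). *Trib3* thus moved in the opposite direction to *Trib1* between the genotype labels. In the cascade list *Akt1* was higher by 0.19 and *Pik3cb*, a catalytic subunit of phosphoinositide 3-kinase, lower, at -0.37, with 23 of 25 not called. Of the FOXO family and partners 4 were higher and 0 lower, *Ywhaz* by 0.32, *Ywhah* by 0.20, *Foxo4* by 0.19 and *Ep300* by 0.18, with 7 of 11 not called. With no trend of the variance *Akt1*, *Foxo4* and *Ep300* were not called (adjusted p = 0.0853, 0.0611 and 0.0765 in limma). Nor were they without any of 9, 8 and 11 of the 12 libraries, with adjusted p in limma up to 0.13, 0.114 and 0.11, each highest without the first sucrose mouse labelled MED13-LKO. *Ywhah* was not called without any of 3 libraries (adjusted p up to 0.0564 in limma, without the first fasted control mouse).

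**Figure D4:**
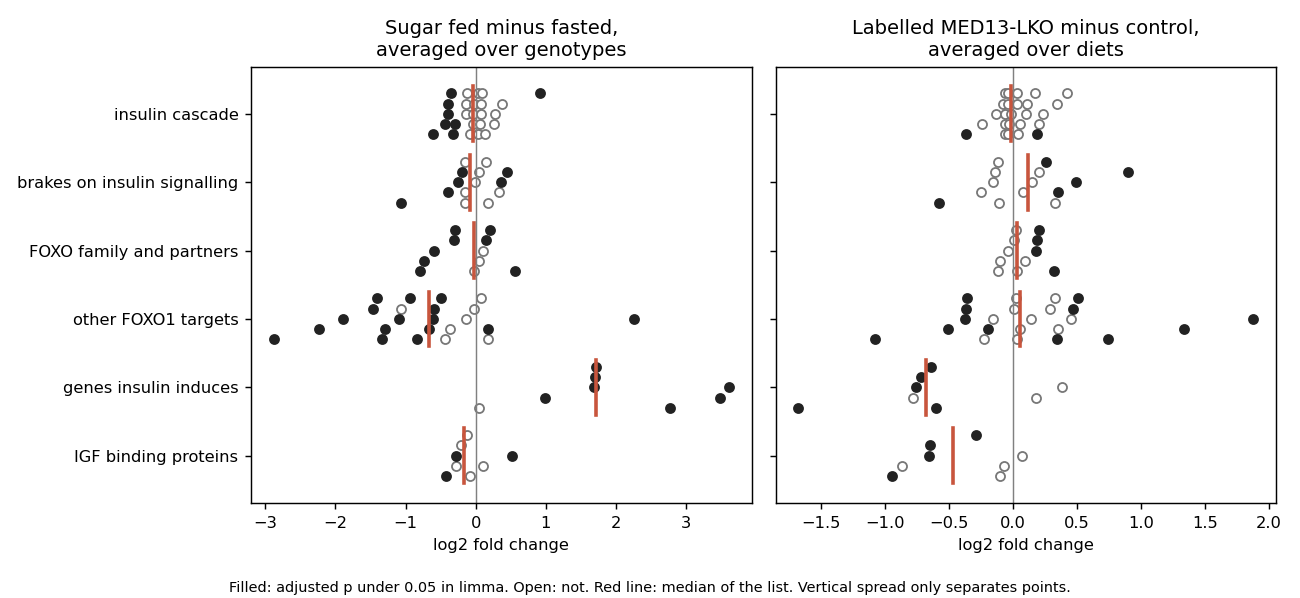
Log2 fold changes (horizontal axes, with different ranges) of the genes in 6 lists of the insulin and FOXO1 route, with feeding (left) and between the genotype labels (right). Each point is 1 gene, filled where its adjusted p in limma is under 0.05, and red lines are the medians of the lists. With feeding the genes that insulin induces have a median of 1.71 and the other FOXO1 targets of -0.66, and between the genotype labels the medians run from -0.68 to 0.12.

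In the interaction of genotype and diet, 0 of the 89 genes were called by limma for sucrose, for fructose or for the comparison of the sugars. Over all genes 0.146%, 0.0243% and 0.105% were called. At an unadjusted p under 0.05 in limma there were 8, 12 and 6 of the 89, beside 1055, 1170 and 855 of the 12366 genes tested. Between the sugars 0 were called in either genotype (0.0404% of all genes in each). At an unadjusted p under 0.05 in limma there were 11 of the 89 in each genotype, beside 1061 and 951 of the 12366.

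Over the 12 libraries, the 5 genes whose log2(normalized count + 1) followed *Igfbp1* most closely were *Klf15* (Pearson r = 0.992), *Irf2bp2* (0.983), *Slc38a2* (0.981), *Zfp871* (0.971) and *Klhl21* (0.968). *Irs2* was followed by *Arl4d* (0.984), *Tat* (0.964), *Slc7a2* (0.959), *Ddit4* (0.954) and *Sds* (0.953). *Foxo1* was followed by *Il6ra* (0.995), *Klf15* (0.982), *Irf2bp2* and *Zfp871* (0.978 each) and *Acot12* (0.975). Among the 9 genes themselves the correlation was 0.97 between *Foxo1* and *Igfbp1*, 0.95 between *Foxo1* and *Foxo3*, 0.94 between *Irs2* and *Igfbp1* and -0.91 between *Irs2* and *Pik3r1*. *Trib1* and *Akt2* had 0.64, and *Trib1* had between -0.61 and 0.26 with the others. The 12 points are pairs of mice from 6 groups and share the division into fasted and fed, and the values are given as a description.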

How the data were processed

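The 12 libraries were grouped by genotype label and diet as the sample titles give them, 2 mice per group. Per the labels and the study's methods, the authors trimmed reads with Trim Galore 0.6.5, estimated transcript counts with kallisto 0.46.0 against mm10 and normalized them with DESeq2 1.24.0. They deposited normalized counts per gene, a signal that no longer holds whole reads: of values under 20, 51.9% to 58.9% were whole multiples of the library's step (tolerance 0.05), against 87.4% to 99% in 2661 genes with a single transcript, so no count test was run.

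From these values log2(normalized count + 1) was computed for 12366 genes with a mean of at least 10. One limma 3.58.1 model (R 4.3.3) with 6 groups was fitted with a variance trend and Benjamini-Hochberg adjustment and was first tested on simulated data. All 12 columns were mapped. Symbols, positions and exon lengths came from GENCODE on GRCm38 (16212 identifiers matched), and sequences from RefSeq. Tables and figures used Python 3.11.15, pandas 2.3.3, NumPy 2.4.6 and matplotlib 3.10.9. The 10 genes, the 6 lists and the tests were chosen with earlier results of these data known. From each list, up to 4 called genes per direction with the smallest adjusted p are named, apart from items not reported here.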

Additional observations from a re-analysis of the deposited data

How the results depend on the processing

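The settings varied were the pseudocount (0.1 and 10), the filter on low values, the scaling (equal 75th percentiles, which moved the median of all genes by at most 0.045 on the log2 scale), a block for the replicate number, the groups fitted, the variance trend and each library. With only the groups compared, the number of the 9 genes called fell from 4 to 0 for fructose in control mice, from 5 to 3 for fructose in the libraries labelled MED13-LKO and from 2 to 0 between fasted genotypes, and rose from 0 to 1 between genotypes with sucrose (*Igfbp1*, adjusted p = 0.0268 in limma). Over all genes the calls in these comparisons, in the same order, went from 692 to 27, from 807 to 414, from 1110 to 886 and from 746 to 561. This setting was not run for comparisons over all 6 groups. With no variance trend the number of the 9 called fell from 5 to 3 for fructose in the libraries labelled MED13-LKO, from 2 to 1 between fasted genotypes and from 2 to 1 between genotypes over the diets (*Igfbp1*, adjusted p = 0.0564 in limma), and *Pik3r1* was no longer called with feeding (adjusted p = 0.0583 in limma). Over all genes the calls in these comparisons fell from 807 to 459, from 1110 to 711, from 3127 to 2769 and, with feeding, from 2691 to 2321. Of the lists, IGF binding proteins then fell from 3 to 1 with feeding, and between genotypes FOXO partners fell from 4 to 2 and the cascade from 2 to 1. With no filter on low values the cascade also fell from 2 to 1, and the calls over all genes between genotypes from 3127 to 3085. The cause of these losses was not tested. In 442 fits of the 64 single differences of at least 0.2 on the log2 scale, outside leave-one-out, 419 kept their side of the threshold, 22 lost a call and 1 gained it, those above included. *Insr* with sucrose in the libraries labelled MED13-LKO was not called with no filter, with the other scaling or with no trend (adjusted p = 0.0544, 0.0667 and 0.103 in limma), *Pik3r1* with sucrose in control mice with a pseudocount of 0.1, with no filter, with only the groups compared or with no trend (adjusted p = 0.0513, 0.0585, 0.0697 and 0.105 in limma), and *Foxo3* with fructose in control mice with no trend (adjusted p = 0.0718 in limma).

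With each library left out, the number of the 9 genes called ran from 2 to 4 for sucrose and from 1 to 5 for fructose in control mice, from 2 to 3 and from 0 to 4 in the libraries labelled MED13-LKO, from 5 to 6 with feeding over both genotypes, from 0 to 1 between fasted genotypes, from 1 to 3 with fructose and from 1 to 3 over the diets. It stayed at 0 between genotypes with sucrose, between sugars and in both interactions. With feeding, the lists ran from 6 to 9 (cascade), 3 to 6 (brakes), 4 to 8 (FOXO partners), 13 to 17 (FOXO1 targets), 6 to 7 (genes that insulin induces) and 1 to 3 (IGF binding proteins), and between genotypes from 1 to 3, 4 to 7, 1 to 3, 8 to 13, 3 to 6 and 3 to 5 in the same order. In the leave-one-out fits of the 64 differences, 329 kept their side of the threshold, 52 lost a call, 5 gained it and 2 changed sign. A difference that was not called had no call to lose. The number of calls over all genes changed in these fits as well, so such changes are not particular to the genes read here. Each of these fits left 1 mouse in 1 group. Both changes of sign came without the second control mouse on fructose. Smaller differences changed sign in 84 fits over all settings and gained 0 calls in limma. *Igfbp1* between fructose and sucrose in control mice ran from -0.40 to 1.94 with libraries left out, and the fructose interaction of *Foxo1* from -0.69 to 0.13. Neither was called.

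Mice with the same replicate number in the sample titles deviated from their group means with correlations of -0.142 to 0.0782 over pairs of groups. The authors' column names number the fed mice otherwise than the titles do. Pairing by title therefore cannot show whether fasted and fed mice shared a batch, which was not tested. With the number as a block, the cascade list between genotypes fell from 2 to 1 and the FOXO partners from 4 to 2, and *Insr* with sucrose in the libraries labelled MED13-LKO was not called (adjusted p = 0.0669 in limma). Calls over all genes between genotypes over the diets then fell from 3127 to 2928. The crossed pairing of the fructose groups, chosen after seeing the data, left 1 of the 9 genes called between genotypes. Over all genes it left 919 calls, against 951 without a block.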

Other observations

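Genotype and the levels of liver cell markers cannot be told apart here, nor can feeding and the hour of sampling. RNA of *Insr*, *Akt2* or *Foxo1* does not show phosphorylation or the place of the protein in the cell. With 2 mice per group, the 95% interval of a difference within 1 diet reached from -2.82 to 0.02 for *Igfbp1* with sucrose. Groups this small can separate without overlap by chance. Where groups are said not to overlap, the share of all genes that separated likewise was not counted.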
